A study of Mus musculus with 6 samples.

Results

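S1pr1, S1pr4, S1pr5, Ccr7 and Cd69 encode receptors that decide whether a T cell leaves, enters or stays in a tissue. These 5 genes, of 55335 in the count table, were chosen by symbol as the sphingosine 1-phosphate (S1P) receptor, homing and retention genes of interest, and each matched 1 Ensembl identifier. P14 CD8+ T cells carry a transgenic T cell receptor for the GP33-41 peptide. The recipients were C57BL/6 mice bearing B16 melanoma cells that present that peptide, and P14 cells were transferred on day 11 after tumor implantation. Donor cells were sorted by flow cytometry from tumors (P14 TIL, 3 libraries) and from spleens of the same tumor-bearing mice (P14 Sp, 3 libraries), with an age of 10 weeks given in the labels for all 6. Every group thus carried the same receptor transgene, every host bore a tumor, and no tumor-free or untransferred control was included. Tumor cells alone passed over a Percoll gradient before sorting. The sources used here do not give the day of sorting, the number of mice behind each library or any pooling. The p-values below therefore reflect the spread among these 6 samples, and that spread may be technical.

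S1P is abundant in blood and lymph and scarce inside tissues. T cells read this gradient through S1P receptor 1 to leave lymphoid organs, while S1P receptor 4 is found mainly on haematopoietic cells and S1P receptor 5 on NK cells and some effector T cells. CCR7 responds to the chemokines CCL19 and CCL21 and brings T cells into lymph nodes and the T cell zones of the spleen. CD69, an early activation antigen that is also a mark of tissue residency, binds S1P receptor 1 and takes it off the cell surface, and KLF2 is a transcription factor that promotes S1pr1 transcription.

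Total counts were 35095261 to 38263483 per library. The CD8 T cell markers were present in both tissues, with summed levels of 4040 to 4178 CPM (a count over the library total, scaled as usual) in tumor and 4494 to 4541 CPM in spleen. Markers of several other cell types were lower in the tumor libraries, as described after the members. The code in each sample's description ends one way for every tumor library and another way for every spleen library. Should that ending be a batch, tissue and batch cannot be told apart.

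All 3 S1P receptor genes among the members were lower in tumor, Ccr7 was higher, and Cd69 did not pass the test. Thus 3 of 5 members were lower, beside 35.9% of 19783 genes tested, and 1 of 5 was higher, beside 34.8% (adjusted p below 0.05 by edgeR's quasi-likelihood test with Benjamini-Hochberg adjustment). With 70.7% of all genes called in one direction or the other, 4 calls among 5 genes is near the background. Against a null of a 2-fold change, which 15.3% of genes passed, the calls for S1pr1, S1pr4 and Ccr7 stood. The libraries of the 2 tissues did not overlap for 4 of the 5 genes, beside 74.5% of genes tested. All 5 members passed the filter on low counts.

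**Figure D1:**
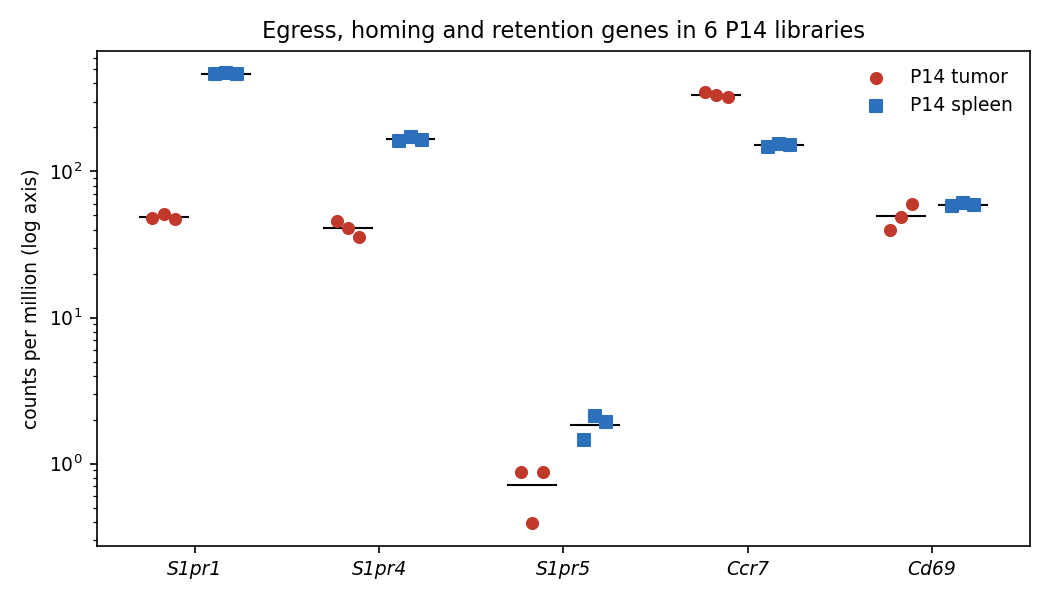
CPM of the 5 genes in each library on a log axis, with red circles for tumor, blue squares for spleen and a black line at the mean of 3 libraries. S1pr1 sits near 465 CPM in spleen and 48.8 CPM in tumor, while the Cd69 libraries of the tissues overlap.

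S1pr1, the receptor for exit into blood and lymph, stood at 47.8, 50.9 and 47.5 CPM in the tumor libraries and at 465, 470 and 460 CPM in the spleen libraries. The tissues were far apart and the libraries within each were close together. Mean levels were 48.8 ± 1.88 and 465 ± 4.57 CPM (SD, n = 3 each), a difference of 9.35-fold (log2 fold change -3.22, 95% interval -3.35 to -3.10, edgeR adjusted p = 4.4e-12). Of the 19783 genes tested, 681 had a lower log2 fold change than S1pr1, which placed it within the lowest 3.44%. The gene (ENSMUSG00000045092.8) lies on the minus strand at chr3:115710433-115715072 in mm10, and no other annotated gene model overlaps it.

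S1pr4, a receptor of haematopoietic cells, stood at 45.7, 41.2 and 35.7 CPM in tumor and at 163, 171 and 164 CPM in spleen. All tumor libraries were below all spleen libraries, and the tumor libraries varied more among themselves. The means were 40.9 ± 4.98 and 166 ± 4.76 CPM (SD, n = 3 each), 3.97-fold lower in tumor (log2 fold change -1.99, 95% interval -2.19 to -1.80, edgeR adjusted p = 5.3e-09). S1pr4 (ENSMUSG00000044199.6) lies on the minus strand at chr10:81497747-81500132 and is annotated as 1 exon.

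S1pr5, which NK cells and some effector T cells use to leave tissues, was close to the limit of these libraries. It had 32, 15 and 32 counts in the tumor libraries and 53, 80 and 68 counts in the spleen libraries. Mean levels were thus 0.718 ± 0.282 CPM and 1.84 ± 0.349 CPM, tumor first (SD, n = 3 each). The libraries did not overlap, and S1pr5 was 2.52-fold lower in tumor (log2 fold change -1.33, 95% interval -1.95 to -0.72, edgeR adjusted p = 0.0012). Against a null of a 2-fold change the call was lost (adjusted p = 0.24). S1pr5 (ENSMUSG00000045087.8) lies on the minus strand at chr9:21242912-21248443. Gm48303, a gene model on the opposite strand, overlaps it but had at most 1 count per library.

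The 250 bases before the annotated start are shown for S1pr4 and S1pr5, the falling receptor genes for which the RefSeq promoter table (GRCm38.p6, the assembly of mm10) holds an entry, because the genes of KLF2 and ZEB2, factors linked to the egress receptors, changed in these libraries. S1pr1, Ccr7 and Cd69 were not matched in that table. Capitals mark CACCC, the core bound by KLF factors (GGGTG on the other strand), and CACCTG, the E-box bound by ZEB factors (CAGGTG on the other strand). The S1pr4 sequence is the minus strand of chr10:81500138-81500387 and the S1pr5 sequence the minus strand of chr9:21248444-21248693.
S1pr4: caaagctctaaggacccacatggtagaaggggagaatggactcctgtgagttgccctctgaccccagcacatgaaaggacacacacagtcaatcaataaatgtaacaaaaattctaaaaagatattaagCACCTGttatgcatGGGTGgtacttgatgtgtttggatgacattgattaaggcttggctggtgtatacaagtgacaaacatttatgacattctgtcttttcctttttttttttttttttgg
S1pr5: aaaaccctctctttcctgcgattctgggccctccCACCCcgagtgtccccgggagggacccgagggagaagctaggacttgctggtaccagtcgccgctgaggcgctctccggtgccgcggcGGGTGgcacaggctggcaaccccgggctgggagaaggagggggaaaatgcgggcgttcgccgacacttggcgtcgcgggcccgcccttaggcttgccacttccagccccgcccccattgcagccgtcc
The S1pr4 window held CACCC 1 time, 107 bases before the start, and CACCTG 1 time, 121 bases before it. The S1pr5 window held CACCC 2 times, 216 and 128 bases before the start, and no CACCTG. Of 32851 promoter windows of the same length, 52.0% held CACCC on either strand and 17.2% held CACCTG. Neither window held the T-box motif GGTGTGA or the FOXO motif GTAAACA on either strand, which occurred in 3.33% and 3.17% of windows. The searched motifs do not overlap each other in these windows. The S1pr4 window was 38.8% G and C, and the S1pr5 window 69.2%. These matches describe the letters only.

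The remaining S1P receptors were measured in the same libraries. S1pr2, which inhibits migration in other lymphocytes, had tumor and spleen means of 13.9 ± 0.983 and 16.2 ± 0.565 CPM and did not pass (log2 fold change -0.19, edgeR adjusted p = 0.064). S1pr3, best known from endothelium and myeloid cells, had 0, 6 and 0 counts in tumor and 108, 166 and 114 counts in spleen, and was lower (log2 fold change -5.92, edgeR adjusted p = 7.9e-07). The 5 S1P receptor genes together held 96.9 to 109 CPM in the tumor libraries and 646 to 664 CPM in the spleen libraries.

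The make-up of the receptor pool differed as well as its size. Counts were divided by the summed exon length of each gene and expressed as a share of the 5 receptors within a library, which does not depend on how libraries are scaled. S1pr1 made up 42.4, 46.4 and 48.0% of this pool in tumor and 68.2, 67.1 and 67.6% in spleen. S1pr4 made up 51.8, 48.0 and 46.0% in tumor and 30.4, 31.3 and 30.7% in spleen. In spleen S1pr1 was thus the leading receptor transcript in every library, and in tumor S1pr1 and S1pr4 were at similar shares. S1pr5 remained minor, at 0.824 ± 0.343% in tumor and 0.325 ± 0.0586% in spleen (SD, n = 3 each), and S1pr2 took 4.94 ± 0.115% and 0.899 ± 0.0332%. The tissues did not overlap for any of the 3 member shares. Each gave a two-sided exact permutation p = 0.1 (0.1 after adjustment over the 3 shares), which is the smallest p that 3 against 3 can give.

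**Figure D2:**
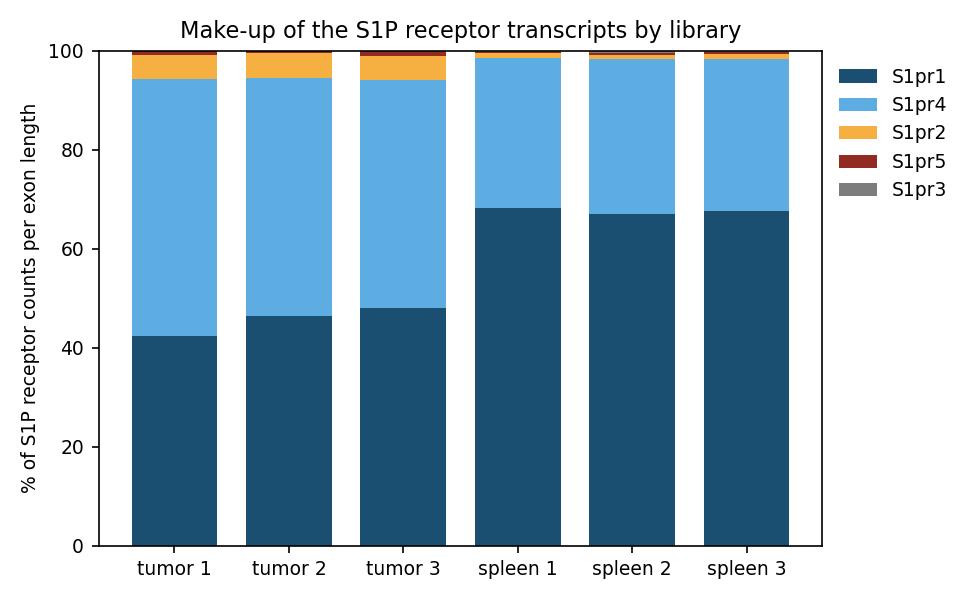
Stacked bars give each S1P receptor gene's percentage of the receptor counts per exon length in each of 3 tumor and 3 spleen libraries. S1pr1 takes 67.1 to 68.2% in spleen and 42.4 to 48.0% in tumor, and S1pr4 takes most of the remainder.

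Ccr7, the lymph node homing receptor, moved the other way. It stood at 350, 335 and 323 CPM in tumor and at 148, 154 and 152 CPM in spleen. All tumor libraries exceeded all spleen libraries. The means were 336 ± 13.4 and 151 ± 2.96 CPM (SD, n = 3 each), 2.27-fold higher in tumor (log2 fold change 1.18, 95% interval 1.05 to 1.31, edgeR adjusted p = 1.0e-08). Ccr7 (ENSMUSG00000037944.8) lies on the minus strand at chr11:99144196-99155077 with no overlapping gene model.

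Cd69, the retention receptor, did not pass the test. It stood at 39.7, 48.4 and 60.0 CPM in tumor and at 58.4, 60.7 and 58.6 CPM in spleen. Tumor replicate 3 lay within the spleen range, and the other tumor libraries lay below it. The means were 49.4 ± 10.2 and 59.2 ± 1.26 CPM (SD, n = 3 each), a log2 fold change of -0.24 with a 95% interval of -0.48 to 0.01 (edgeR adjusted p = 0.076). That interval holds no difference as well as a fall, and it excludes a 2-fold change in either direction. Without tumor replicate 3 Cd69 was called lower (-0.38, adjusted p = 0.00032), and so it was with upper-quartile scaling (-0.29, adjusted p = 0.035), with no filter on low counts (-0.22, adjusted p = 0.0098) and with a replicate block (-0.25, adjusted p = 0.037). Without tumor replicate 1 the value was -0.10 (adjusted p = 0.30). Cd69 (ENSMUSG00000030156.5) lies on the minus strand at chr6:129267325-129275436 and has 5 annotated transcripts.

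The members also differed in how much they varied within a tissue. In tumor the coefficient of variation over 3 libraries was 3.86% for S1pr1 and 3.98% for Ccr7, 12.2% for S1pr4, 20.6% for Cd69 and 39.3% for S1pr5. In spleen it was 0.983% for S1pr1, 1.96% for Ccr7, 2.87% for S1pr4, 2.13% for Cd69 and 19.0% for S1pr5. Counting noise alone would give 2.35% for S1pr1, 0.897% for Ccr7, 2.57% for S1pr4, 2.34% for Cd69 and 19.5% for S1pr5 in tumor. In spleen it would give 0.768% for S1pr1, 1.35% for Ccr7, 1.29% for S1pr4, 2.15% for Cd69 and 12.2% for S1pr5. The observed value was thus above the counting value for all 5 genes in tumor, and in spleen for all but Cd69. Whether 3 libraries would give such an excess by sampling was not tested.

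Levels of different genes were compared per kilobase of the principal annotated transcript, since gene length sets how many fragments a transcript gives. In spleen the order was S1pr1 (153 ± 1.5 CPM per kb), Ccr7 (76.4 ± 1.5), S1pr4 (69.6 ± 2.0), Cd69 (35.1 ± 0.748) and S1pr5 (0.735 ± 0.139). In tumor the order was Ccr7 (170 ± 6.76 CPM per kb), Cd69 (29.3 ± 6.03), S1pr4 (17.1 ± 2.09), S1pr1 (16.0 ± 0.618) and S1pr5 (0.287 ± 0.113). The neighbours S1pr4 and S1pr1 did not differ beyond their spread in tumor, where the ratio of S1pr1 to S1pr4 was 0.820, 0.967 and 1.04 by library, against 2.24, 2.15 and 2.2 in spleen. The place of Cd69 depends on the length used, because the exons of its 5 annotated transcripts together span 6509 bases and its principal transcript 1687. With the longer length Cd69 was at 7.59 ± 1.56 CPM per kb in tumor, below S1pr1.

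The balance of Cd69 to S1pr1 differed between the tissues. Per kilobase of principal transcript, the ratio of Cd69 to S1pr1 was 1.5, 1.72 and 2.28 in tumor and 0.227, 0.233 and 0.230 in spleen. The ratio of Ccr7 to S1pr1 was 11.3, 10.1 and 10.5 in tumor and 0.490, 0.504 and 0.507 in spleen. Both ratios were higher in all tumor libraries than in any spleen library, and both follow from the member values given above.

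Genes around the members were described from 7 pathway lists, which held 72 different genes, of which 70 were tested. Of these, 43 were lower (61.4%) and 12 higher (17.1%), beside the 35.9% and 34.8% of all genes tested. The lists were chosen with earlier results of these data known, so their shares and medians are not independent evidence of a pathway-wide fall. Without the 5 members the counts were 40 and 11 of 65, with a median log2 fold change of -0.50, where the median of all genes tested was -0.02. Against a null of a 2-fold change 20 were lower and 4 higher, beside 9.42% and 5.87% of all genes. For each list below that is given as counts lower and higher, marker lists included, these stand beside the same 35.9% and 34.8%.

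**Figure D3:**
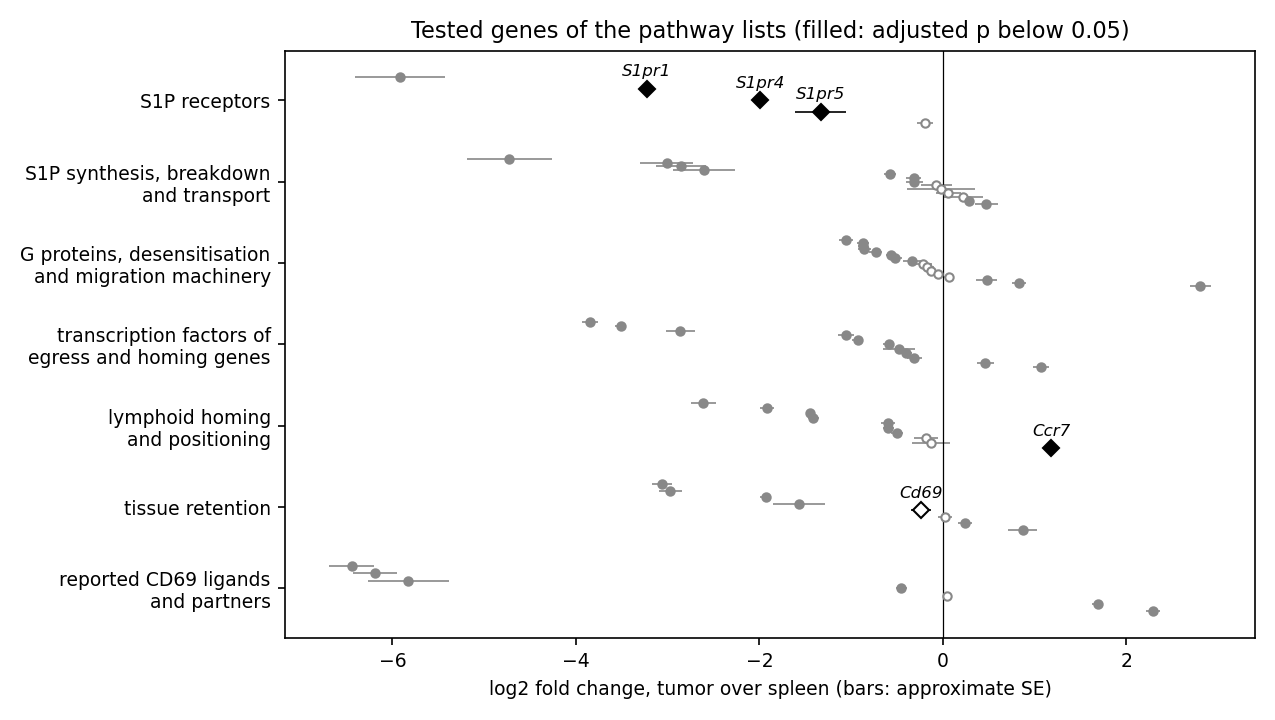
Each point is the log2 fold change, tumor over spleen, of 1 tested gene of a pathway list, with a bar for its approximate SE, filled where the adjusted p was below 0.05. Black diamonds mark the 5 members, of which S1pr1 lies at -3.22, Ccr7 at 1.18 and Cd69, unfilled, at -0.24.

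Transcription factors that act on egress and homing genes were lower for 9 of 11 and higher for 2 (median log2 fold change -0.59). Klf2, the activator of S1pr1, was at 61.0, 51.4 and 50.5 CPM in tumor and at 776, 830 and 788 CPM in spleen (log2 fold change -3.85, edgeR adjusted p = 3.2e-11). Its relative Klf3 was lower by a similar size (-3.51). Foxo1, which sustains Klf2 and Ccr7 in resting T cells, was lower (-0.93), while Ccr7 was higher in the same libraries. Tbx21, which encodes T-bet and acts on S1pr5 in NK cells, was lower (-0.59). Zfp683, which encodes the residency factor HOBIT, was lower (-2.86), while Prdm1, which encodes BLIMP-1, was higher (0.46). Zeb2, a repressor that works with T-bet in effector T cells, was higher, with means of 19.8 ± 1.21 CPM in tumor against 9.58 ± 0.584 CPM in spleen (log2 fold change 1.07).

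G proteins, kinases, arrestins and migration factors through which S1P receptors and CCR7 act and are turned off were lower for 8 of 16, higher for 3, and not called for 5 (median log2 fold change -0.28). Dock2 and Rac2, which drive actin at the leading edge, were lower (-1.05 and -0.87), as was Arhgef1, which links these receptors to RhoA (-0.86). The receptor kinase genes Grk2 (-0.34) and Grk6 (-0.56) were lower, and of the arrestins, Arrb2 was lower (-0.87) and Arrb1 higher (0.83). Rgs1, which shortens G protein signals of chemokine receptors, was at 115, 139 and 170 CPM in tumor and 20.5, 21.2 and 20.1 CPM in spleen (log2 fold change 2.80).

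Enzymes and transporters of S1P were lower for 7 of 13 and higher for 2 (median log2 fold change -0.31). Sgpl1, the lyase that destroys S1P, was higher, with means of 94.8 ± 2.54 CPM in tumor against 79.5 ± 2.85 CPM in spleen (log2 fold change 0.28). Sphk2, a kinase that makes S1P, was lower (-0.32), as was Sgpp1, a phosphatase that removes it (-0.57). The largest falls were in Plpp3 (-4.73), the exporter genes Mfsd2b (-3.01) and Spns2 (-2.85), and Sphk1 (-2.60), all of them at about 2 CPM or less in spleen.

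Genes of lymphoid homing and positioning were lower for 7 of 10 tested and higher for 1, which was Ccr7. Itgb7 and Itga4, whose products pair as a gut homing integrin, were lower (-1.92 and -1.44), and so was Cxcr5, the receptor for entry into B cell follicles (-2.61). Itgal and Itgb2, whose products pair as LFA-1, fell by less (-0.50 and -0.59). The CCR7 ligand genes Ccl19 and Ccl21a, which stromal cells make, had 0 counts in tumor and 20 and 9 counts over the spleen libraries, and were not tested. A count of 0 allows up to 3 counts, or up to 0.0829 CPM in the tumor libraries, for counting error only.

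The tissue retention list, which includes Cd69, had 4 lower and 2 higher genes of 8. Itgae, which encodes CD103 and binds E-cadherin, was lower (-2.97), as were P2rx7 (-3.06) and Itga1, which encodes CD49a (-1.93). Ahr, a residency-promoting receptor for aryl hydrocarbons, was higher (0.87), and Cd101 was higher by less (0.24). Cxcr6, a chemokine receptor of tissue T cells, had means of 354 ± 49.0 CPM in tumor against 355 ± 3.51 CPM in spleen and did not pass (0.02). Genes reported as ligands or partners of CD69 were lower for 4 of 7 and higher for 2, and 1 was not called (median log2 fold change -0.46). The higher genes were Slc7a5 and Slc3a2, which form an amino acid transporter (2.29 and 1.69). The lower genes were S100a8 (-6.44) and S100a9 (-6.19), which are also in the neutrophil marker list, the myosin light chain gene Myl9 (-5.83), and Lgals1, the galectin-1 gene (-0.46).

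Cd69 responds both to antigen receptor signals and to type I interferon, and those programmes moved in opposite directions. Early genes of antigen receptor signalling were higher for 14 of 16 and lower for 1 (median log2 fold change 1.86), such as Nr4a2 (6.24) and Nr4a1 (4.65). Type I interferon-stimulated genes were lower for 19 of 19 (median -1.73), such as Ifit3 (-2.53) and Irf7 (-1.80). Of all genes tested, 34.8% were higher and 35.9% lower. Any part of either programme in the level of Cd69 was not tested.

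For each member, the 3 protein-coding genes with the closest pattern over the 6 libraries were sought outside the pathway lists, by the mean absolute difference in centred log2 CPM, among 8424 genes with a mean of at least 10 CPM. With 6 libraries in 2 tissues this likeness is mostly one of fold change. S1pr1 was closest to Sgk1, a kinase gene (mean difference 0.06), Lyz2, the macrophage lysozyme gene (0.07), and Vipr1, a receptor for vasoactive intestinal peptide (0.08), and 17 genes lay within 0.2. S1pr4 was closest to Slco3a1, Rasa3 and Acp5 (all 0.05), with 106 genes within 0.2. Ccr7 was closest to Prmt7 (0.01), the growth regulator Myc (0.02) and Gtse1 (0.03), with 649 genes within 0.2. S1pr5 had few near neighbours, with Znrf2 at 0.19, Ski at 0.20 and Krba1 at 0.23, and 1 gene within 0.2. At 15 to 80 counts per library, its counting noise adds to every such difference. Its number of neighbours thus cannot be set beside those of the other members. Cd69 was closest to Emc2, Rsrc2 and Rad17 (0.03 each), and 2799 genes lay within 0.2.

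RNA of other cell types differed between the tissues in the same libraries. B cell markers were lower in tumor for 12 of 12, with a summed level of 283 to 284 CPM in tumor and 1468 to 1473 CPM in spleen. Cr2 had 0 counts in tumor, and Ighm had the highest level in both tissues (270 and 807 CPM). Macrophage and monocyte markers were lower for 12 of 12, at 598 to 648 CPM and 1930 to 2038 CPM, led by Ly6c2, which CD8 T cells also express. Dendritic cell markers were lower for 9 of 9 tested (45.4 to 49.3 CPM and 168 to 172 CPM, led by Itgax), with Clec9a, Siglech and Cd209a at 0 counts in tumor. Neutrophil markers were lower for 4 of 4 tested, at 0.575 to 0.823 CPM and 15.7 to 18.9 CPM. B cells, macrophages and dendritic cells can express S1pr1, S1pr4, Ccr7 or Cd69, and their part in the member values was not tested. NK cell markers, which bear on S1pr5, were higher for 3 of 5 and lower for 0, beside 34.8% of all genes tested higher. They summed to 6.14 to 9.31 CPM in tumor and 4.82 to 5.71 CPM in spleen. The higher genes were Klra4, Klra7 and Klra8, all at low counts. Ncr1 (log2 fold change 0.09, edgeR adjusted p = 0.71) and Klrb1c (0.28, adjusted p = 0.19) were not called. Endothelial markers, which bear on S1pr1 and S1pr3, summed to 0.111 to 0.261 CPM in tumor and 3.45 to 3.88 CPM in spleen. Most of the spleen sum was Vwf (2.87 ± 0.341 CPM), the only 1 of the 7 genes tested (lower, log2 fold change -5.86). Over the tumor libraries the other genes had from 0 counts (Tek and Emcn) to 8 (Kdr). Over the spleen libraries they had from 1 count (Tek and Emcn) to 48 (Kdr). Melanoma markers summed to 9.65 to 10.9 CPM in tumor and 19.4 to 21.4 CPM in spleen, led in both by Pmel. Pmel and Mitf had more counts in spleen, and every other gene of that list had more in tumor. Summed over libraries, tumor first, these were Tyrp1 (64 and 0), Dct (51 and 1), Mlana (19 and 2), Sox10 (16 and 2) and Tyr (5 and 2). Tumor cell RNA in the tumor libraries was not tested. CD4 T cell markers, of which 2 of 4 were lower and 1 higher, summed to 44.5 to 47.9 and 58.7 to 59.9 CPM. Fibroblast markers summed to 0.138 to 0.932 and 0.427 to 1.23 CPM. In these sorted samples, fewer cells with a transcript and less of it per cell cannot be told apart.

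**Figure D4:**
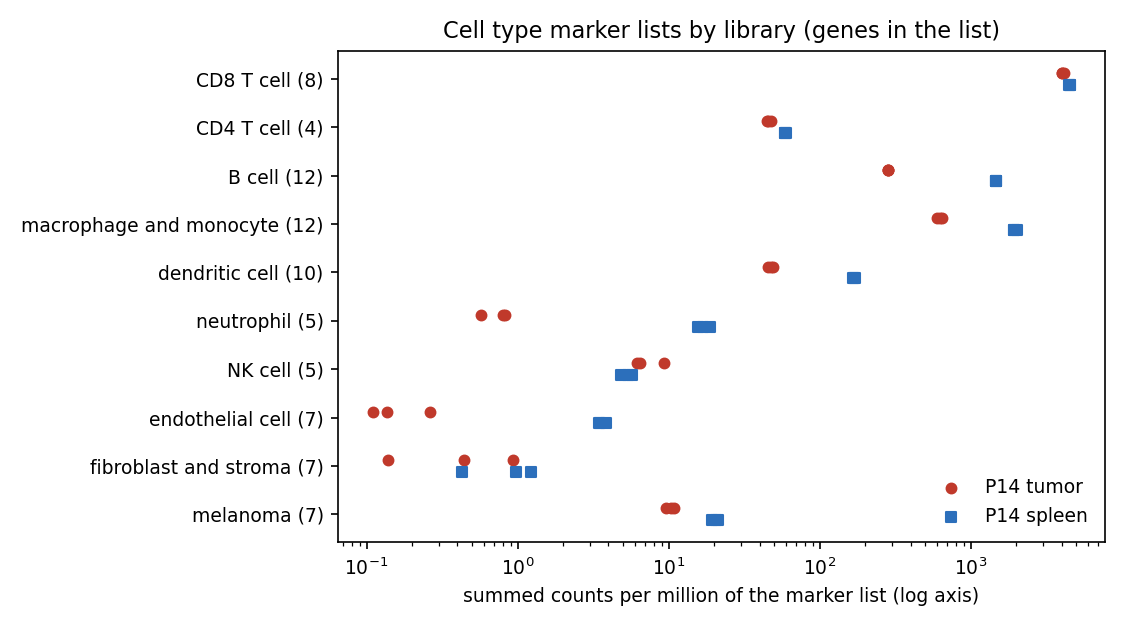
Summed CPM of each cell type marker list on a log axis, with red circles for tumor libraries, blue squares for spleen libraries and the number of genes in brackets. CD8 T cell markers lie at 4040 CPM or more in every library, and B cell markers lie at 283 to 284 CPM in tumor and 1468 to 1473 CPM in spleen.

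Scaling the libraries to their summed CD8 and CD3 chain counts in place of the usual factors left the members near their reported values. S1pr1 was then at -3.15, S1pr4 at -1.92, S1pr5 at -1.26 and Ccr7 at 1.25 on the log2 scale, and Cd69 at -0.17 (edgeR adjusted p = 0.16). The chain genes themselves were not constant, since Cd8a was higher (0.85) and Cd8b1 lower (-0.62).

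**Figure D5:**
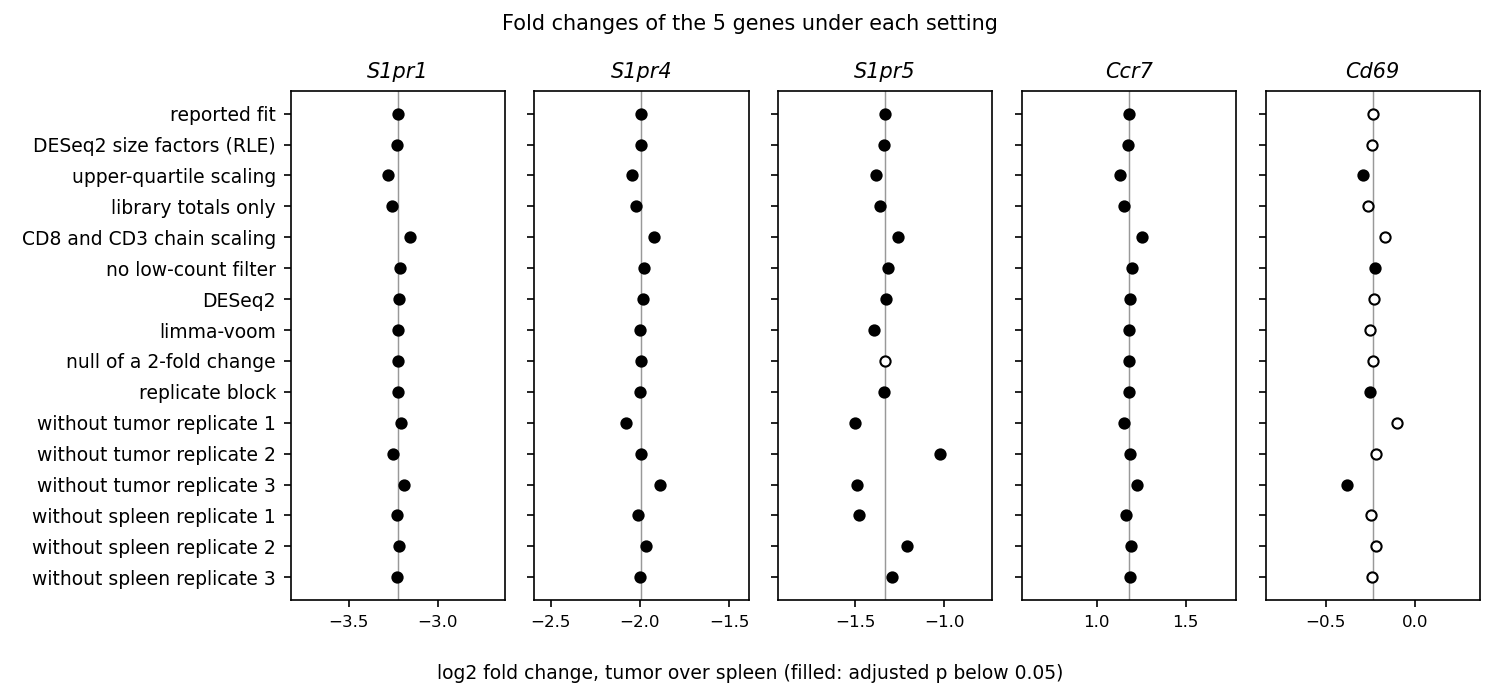
Log2 fold changes, tumor over spleen, of the 5 genes under the reported fit and 15 other settings, filled where the adjusted p was below 0.05, with a grey line at the reported value and a span of equal width in each panel. S1pr1, S1pr4 and Ccr7 are filled throughout, S1pr5 is unfilled against a null of a 2-fold change, and Cd69 is filled in 4 of the 15 settings.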

How the data were processed

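The deposited table gives raw counts for each gene, made by the authors from single reads of stranded low-input libraries, with no normalization. Per the submitters' processing notes, the build was mm10 and the tools were STAR 2.3, featureCounts and bcl2fastq 2.20.0.422. The sources used here do not give the annotation release or the strand setting. Symbols, lengths and coordinates came from GENCODE M21, which 54587 of 55335 rows matched with their version. Of 185 list entries, 184 matched 1 row (Myl12b matched 2 and was left out).

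Counts were tested on the whole table by the quasi-likelihood F-test of edgeR 4.0.16 (R 4.3.3) after TMM scaling (filterByExpr with a minimum count of 10 and total of 15, Benjamini-Hochberg threshold 0.05). SE is the absolute log2 fold change over the square root of F, and intervals use its t distribution. Shares were compared by exact permutation (SciPy 1.17.1). In simulated counts for this comparison (19414 genes), edgeR recovered 100% of 100 genes changed 2-fold. It also called 7 genes that had not been changed. The changed genes were drawn only from genes with a higher mean count than S1pr5, so this recovery does not cover S1pr5. They were also a far smaller part of the genes than the 70.7% called in the real counts. The alternatives were other scalings, no filter, DESeq2 1.42.0, limma-voom (limma 3.58.1), a 2-fold null, a replicate block and leaving out each library. No pair of libraries agreed within counting noise (chi-square per degree of freedom 2.19 or more).

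Named genes were the members, pathway genes with small p in each direction, the 3 nearest genes of each member, and the highest and zero-count markers. Other list genes named for their role were picked after their values were seen. The members and lists were chosen with earlier results of these data known. A list gene counted in the totals is not reported here by name.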

Additional observations from a re-analysis of the deposited data

How the results depend on the processing

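Under all 15 other settings S1pr1 (-3.28 to -3.15), S1pr4 (-2.08 to -1.89) and Ccr7 (1.13 to 1.25) kept their direction and call. S1pr5 ranged from -1.50 to -1.03 and lost its call only against a null of a 2-fold change (-1.33, adjusted p = 0.24). Cd69 stayed negative throughout and gained a call with upper-quartile scaling (-0.29), with no low-count filter (-0.22) and with a replicate block (-0.25). Leaving out 1 library gave Cd69 values from -0.38 (tumor replicate 3, called) to -0.10 (tumor replicate 1). The cause was not tested. The pathway counts fell to 4 higher and 20 lower against a null of a 2-fold change, and were otherwise 11 to 12 and 41 to 48. The S1pr4 share differed between tissues by 17.8 percentage points, and by 13.7 with raw counts, which carry no length correction. Lengths of principal transcripts, chosen after seeing the data, gave 17.3. Equal replicate numbers did not deviate together (correlations -0.027, 0.046 and 0.020). With the replicate block S1pr1 was at -3.23, S1pr4 at -2.0, S1pr5 at -1.34 and Ccr7 at 1.18, with 12 pathway genes higher and 45 lower. Of the members, S1pr5 alone is limited by depth, at 79 counts over the tumor libraries.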

Other observations

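Among the tumor libraries, replicate 3 had the highest Cd69 (60.0 CPM), Rgs1 (170 CPM) and Cxcr6 (411 CPM), and the lowest S1pr4 (35.7 CPM). Replicate 1 had the lowest Cd69 (39.7 CPM), Rgs1 (115 CPM) and Cxcr6 (324 CPM), and the highest S1pr4 (45.7 CPM). These genes were picked after their values were seen, and 3 libraries allow no test of the relation.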
